A study of Mus musculus with 6 samples.

Results

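The matrix proteases of the MMP, ADAMTS and ADAMTS-like families and their TIMP inhibitors were examined in ribosome-bound RNA from lung pericytes of mice lacking Yap1 and Wwtr1. Members were all protein-coding genes whose symbol in the GENCODE M21 annotation begins with Mmp, Adamts or Adamtsl and a digit, or is one of Timp1 to Timp4. This name rule used no measured value, but the families were chosen with earlier results of these data known. It gave 50 of the 21603 genes listed, namely 22 MMP, 19 ADAMTS, 5 ADAMTSL and 4 TIMP genes.

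The study asked how the transcriptional co-activators YAP1 and TAZ (the product of Wwtr1) act in lung pericytes, the mural cells that wrap capillaries. RNA was taken from whole lungs of C57BL/6 mice at postnatal day 8, with 3 control and 3 Yap1,Wwtr1 iPCKO samples. Every mouse carried the tamoxifen-inducible Pdgfrb(BAC)-CreERT2 transgene and 1 copy of the Rpl22 allele that gains an HA tag after recombination, and tamoxifen was given to both groups from P0 to P2. The HA-tagged ribosomes were pulled down with an anti-HA antibody and their RNA was sequenced. Controls were labelled Yap1+/-;Wwtr1+/- and carried 1 floxed copy of each gene, so they too lost 1 copy of each in recombined cells. The iPCKO mice were labelled Yap1-/-;Wwtr1-/- and carried 2 floxed copies of each. Recombination was limited to cells with Pdgfrb promoter activity, and the study combined animals irrespective of sex.

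Matrix metalloproteinases (MMPs) are zinc enzymes that cleave collagens, gelatin, elastin and cell-surface proteins. ADAMTS enzymes trim procollagens, cleave proteoglycans such as versican or act around fibrillin microfibrils, and the ADAMTS-like proteins share their non-catalytic modules without a protease domain. TIMPs bind the active site of MMPs, and the postnatal lung remodels collagen and elastic fibres while alveoli form.

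A block of 9 MMP genes lies on chromosome 9 of GRCm38, from 7272514 to 7699585, a length of 427 kb. Their promoters are shown because this is the densest genomic group of members and because 1 gene of it, Mmp8, was the only one above 1 RPKM (reads normalised to transcript length and library depth) in more than 1 sample. RefSeq windows of GRCm38.p6, from 250 bases before to 50 after each start, were found for 35 of the 50 members, in 38 windows. The AP-1 type motif TGANTCA, searched on both strands, was in 7 of these 38 windows (18.4%) and in 7.81% of all 32851 windows. All 7 genes that held it, Mmp7, Mmp10, Mmp12, Mmp13, Mmp1b, Mmp20 and Mmp3, belong to the chromosome 9 block. The windows of Mmp8 and Mmp27, also in the block, did not hold these letters. Below are 80 bases, from 100 to 21 bases before the start, of 6 genes with the motif, written 5′ to 3′ on the gene's strand with the motif in capitals, and the same stretch of Mmp8.
Mmp13, plus strand, chr9:7272414-7272493: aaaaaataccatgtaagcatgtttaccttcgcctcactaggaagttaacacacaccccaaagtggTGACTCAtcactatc
Mmp1b, minus strand, chr9:7388047-7388126: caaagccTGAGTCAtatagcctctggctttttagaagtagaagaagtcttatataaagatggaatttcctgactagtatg
Mmp3, plus strand, chr9:7445722-7445801: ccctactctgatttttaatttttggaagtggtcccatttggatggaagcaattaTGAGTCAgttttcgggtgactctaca
Mmp10, plus strand, chr9:7502242-7502321: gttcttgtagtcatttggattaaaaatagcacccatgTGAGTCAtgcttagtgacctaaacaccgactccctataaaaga
Mmp20, plus strand, chr9:7628131-7628210: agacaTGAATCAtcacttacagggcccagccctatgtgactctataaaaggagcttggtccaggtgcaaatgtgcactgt
Mmp7, plus strand, chr9:7691990-7692069: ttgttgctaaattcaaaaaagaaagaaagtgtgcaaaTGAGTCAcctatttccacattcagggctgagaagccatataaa
Mmp8, plus strand, chr9:7558329-7558408: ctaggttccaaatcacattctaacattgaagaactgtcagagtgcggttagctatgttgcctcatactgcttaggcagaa

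YAP1 and TAZ bind DNA through TEAD factors, whose core motif GGAATG was searched in the same windows on both strands. It was in 14.7% of all windows and in 2 of the 38 member windows (5.26%), those of Adamts13 and Timp1. The stretch of Timp1 that holds it, 250 to 171 bases before the start on the X chromosome, is shown with the motif in capitals. Among the changed members for which a window was found, only Timp1 held this motif.
Timp1, plus strand, chrX:20869916-20869995: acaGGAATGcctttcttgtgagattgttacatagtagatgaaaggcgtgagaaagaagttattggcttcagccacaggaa
Windows were found for 5 of the members that rose and 4 of those that fell. None of these 9 held TGANTCA. A match of letters is not evidence of binding, and no binding was measured.

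The samples carried signs of other cells and of mixed sex, which are given before the results. Yap1 read 13.2, 11.5 and 12.4 RPKM in controls 1 to 3 and 5.76, 5.83 and 5.25 RPKM in iPCKO 1 to 3, while gene-level Wwtr1 overlapped, at 53.8 to 71.3 and 60.3 to 63.5 RPKM. A value over a whole gene need not show the loss of a floxed part. Pdgfrb, the receptor that defines pericytes, was high in every sample, at 1369 to 1666 RPKM in controls and 1193 to 1447 RPKM in iPCKO, and 10 pericyte markers summed to 3523 to 4277 and 2895 to 3620 RPKM. Of these 10, Abcc9, Cspg4 and Kcnj8 were called higher, by 1.15, 1.06 and 1.03, and Notch3 and Rgs5 lower, by -0.94 and -1.15, so the pericyte list did not move as 1 group. The sum of 4 Y-linked transcripts was 35.0, 0.0671 and 40.8 RPKM in controls 1 to 3 and at most 0.0750 RPKM in any iPCKO sample, so male tissue was detected in 2 controls and in no other sample. The 10 neutrophil markers summed to 86.2 to 128 RPKM in controls and 444 to 4894 RPKM in iPCKO, with the highest sum in iPCKO 3, and Mpo, of early precursors, was at most 0.369 RPKM in any sample. In ribosome pull-downs from whole lung, as in other bulk samples, more or fewer cells of a type and more or less RNA per cell cannot be told apart. The reads implied by the spacing of low values were 17430000 to 34700000 in controls and 14240000 to 39640000 in iPCKO, so that 1 read on a transcript of 1 kb was worth 0.0252 to 0.0702 RPKM.

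Of the 50 members, 34 reached 1 RPKM in at least 3 of the 6 samples and were tested, and 13 of these changed, with 6 higher and 7 lower in iPCKO. That is 38.2% of the tested members, against 6.79% of the 12034 genes tested in all (4.11% higher and 2.68% lower). Because the families were chosen with earlier results of these data known, the shares given here describe the members and are not a test. A change was called at an adjusted p below 0.01 and an absolute difference above 0.5 in mean log2(RPKM + 0.1), with limma and Benjamini-Hochberg adjustment over all tested genes. Every difference below is on this scale, iPCKO minus control, with its standard error. Without Mmp8 and Mmp9, whose levels followed neutrophil markers as described below, 12 of 32 tested members changed, 5 higher and 7 lower. The median absolute difference was 0.60 over the 34 members and 0.17 over all genes, and the signed median of the members was -0.19. In 25 of the 34 the lowest sample of one group was above the highest of the other, 11 higher and 14 lower in iPCKO, against 35.5% of all tested genes (18.3% higher and 17.1% lower). Without Mmp8 and Mmp9 these were 9 higher and 14 lower of 32 tested. Of the 34, 31 reached the 1 RPKM minimum in all 6 samples, and the exceptions were Mmp8, Mmp9 and Adamtsl1. Among controls, Mmp8 reached it in control 2 alone, so its testing depended on the iPCKO samples. Mmp9 passed the minimum through the 3 iPCKO samples alone, so its place among the 6 higher members depends on that group. Without the filter it was not called (adjusted p = 0.014, limma).

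**Figure D1:**
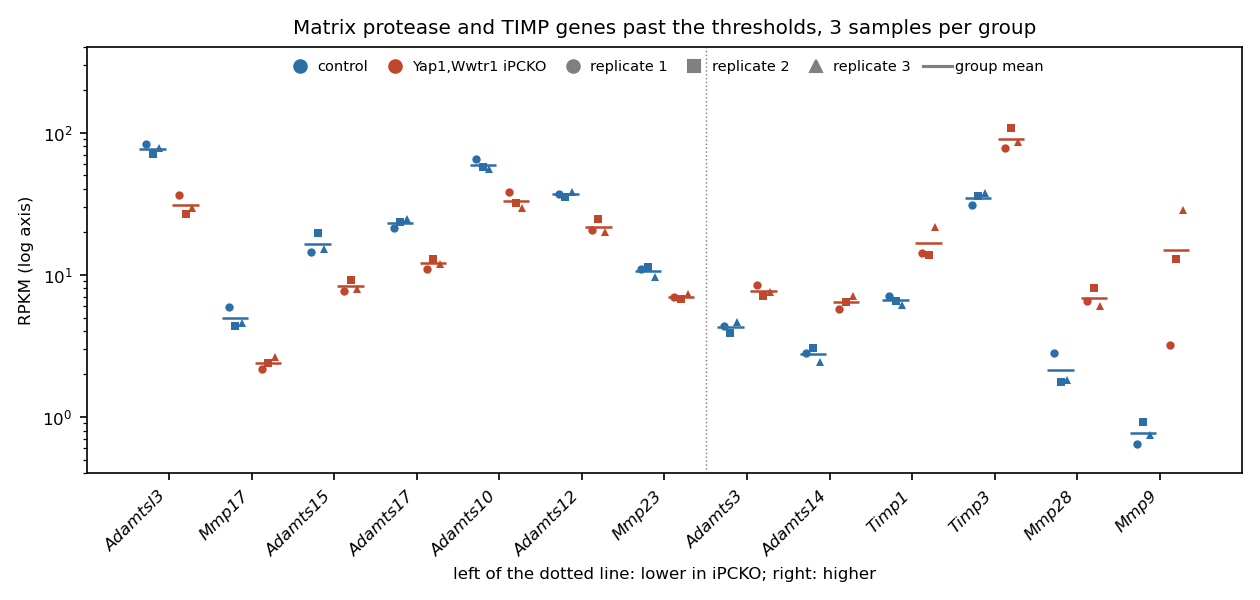
RPKM on a log axis in each of the 3 control (blue) and 3 Yap1,Wwtr1 iPCKO (red) samples for the 13 members past the thresholds, with symbols for replicate numbers and lines at group means. In all 13 genes the groups did not overlap, and the iPCKO points of Mmp9 spread from 3.19 to 28.4 RPKM while those of the other genes lay close together.

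The balance among the inhibitors differed between the groups. Timp3 and Timp1 rose and neither Timp2 nor Timp4 passed the test. Timp3 (chromosome 10, 86300372 to 86349506), the TIMP that stays bound to the matrix and also inhibits several ADAM and ADAMTS enzymes, read 30.7, 35.9 and 37.5 RPKM in controls 1 to 3 and 78.3, 108 and 85.8 RPKM in iPCKO 1 to 3. The lowest iPCKO sample was far above the highest control. Its mean was 34.7 ± 3.53 RPKM (SD, n = 3) in controls and 90.7 ± 15.5 RPKM (SD, n = 3) in iPCKO, a difference of 1.38 ± 0.14 with an adjusted p of 0.00039 from limma. Timp1 (X chromosome, 20870166 to 20874735), a soluble inhibitor that is weak against several membrane-type MMPs, read 7.09, 6.52 and 6.17 RPKM in controls and 14.3, 13.7 and 21.7 RPKM in iPCKO. All iPCKO samples were above all controls, with the highest value in iPCKO 3, and the difference was 1.29 ± 0.17 with an adjusted p of 0.0015 from limma.

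Timp2 (chromosome 11, 118301069 to 118355740), which bridges Mmp14 and pro-Mmp2 when gelatinase A is activated, had the highest mean of all members in controls, through control 1, while Mmp14 was higher in controls 2 and 3. It read 141, 111 and 108 RPKM in controls and 95.4, 93.6 and 89.4 RPKM in iPCKO. The iPCKO samples all lay below the controls, but control 1 stood apart from the other controls and the difference of -0.36 ± 0.12 had an adjusted p of 0.080 from limma. Timp4 read 4.16, 3.04 and 3.91 RPKM in controls and 2.04, 2.03 and 3.17 RPKM in iPCKO, where iPCKO 3 overlapped the controls, and its difference of -0.62 ± 0.20 had an adjusted p of 0.071 from limma. Timp3 made up 21.3% ± 3.94 of the summed TIMP RPKM in controls and 44.6% ± 4.501 in iPCKO (SD, n = 3 each), and Timp2 72.5% ± 4.07 and 46.0% ± 3.74. These sums and shares describe the samples and were not tested. Of the exonic bases of Timp3, 21.3% overlap Syn3 on the opposite strand, which read 0.231 to 0.347 RPKM over the 6 samples, and the strand setting of the counting is not given in the sources used here.

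**Figure D2:**
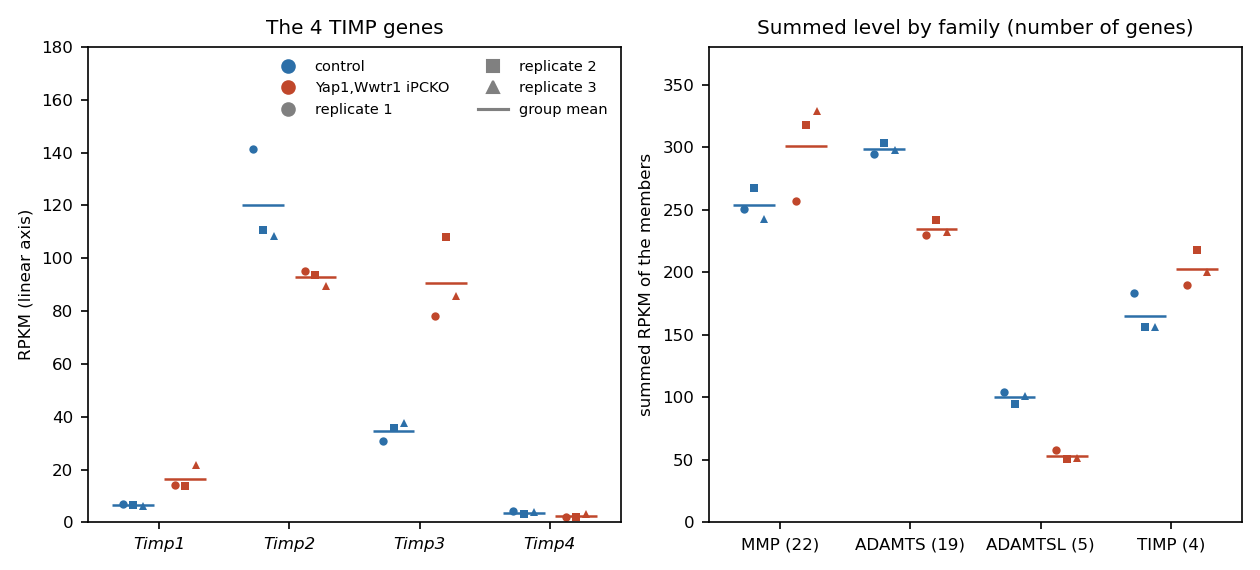
Left, RPKM of the 4 TIMP genes on a linear axis; right, the summed RPKM of the members of each family, with the number of genes in parentheses, in 3 control (blue) and 3 iPCKO (red) samples, with lines at group means. Timp3 lay near the level of Timp2 in iPCKO, where its mean was 90.7 RPKM, and the ADAMTS and ADAMTSL sums of the groups did not overlap.

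Gelatinase A and its activator showed no change that passed the test. Mmp2 (gelatinase A) read 77.0, 96.3 and 75.5 RPKM in controls and 70.9, 89.5 and 86.8 RPKM in iPCKO. The groups overlapped fully, and the difference was -0.01 ± 0.13 with an adjusted p of 0.98 from limma. Mmp14 (MT1-MMP), the membrane-anchored collagenase that activates pro-Mmp2, read 117, 118 and 113 RPKM in controls and 119, 143 and 119 RPKM in iPCKO. All iPCKO values lay above the controls, by a margin smaller than the spread within iPCKO, and the difference was 0.12 ± 0.10 with an adjusted p of 0.48 from limma. Mmp14 and Mmp2 made up 45.9% and 32.6% of the summed MMP RPKM in controls and 42.6% and 27.4% in iPCKO.

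Among the other membrane-type enzymes Mmp17 fell, and Mmp15 did not pass. Mmp17 (chromosome 5, 129584169 to 129611099), which is held at the cell surface by a GPI anchor, read 5.91, 4.35 and 4.58 RPKM in controls and 2.16, 2.39 and 2.63 RPKM in iPCKO. The highest iPCKO value was well under the lowest control, and the difference was -1.01 ± 0.14 with an adjusted p of 0.0024 from limma. Mmp15 (MT2-MMP) ranged from 14.9 to 17.9 RPKM in controls and from 20.1 to 27.9 RPKM in iPCKO, a difference of 0.49 with an adjusted p of 0.045 from limma. Mmp16, Mmp24 and Mmp25 did not reach the minimum for testing.

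Of the remaining MMPs, Mmp28 rose and Mmp23 fell. Mmp28 (epilysin; chromosome 11, 83440768 to 83463071), a secreted enzyme known from epithelia and skin, read 2.82, 1.75 and 1.82 RPKM in controls and 6.51, 8.08 and 6.01 RPKM in iPCKO. All iPCKO samples were far above the highest control, and the difference of 1.67 ± 0.19 (adjusted p = 0.00085, limma) was the largest among tested members other than Mmp8 and Mmp9. Of its exonic bases, 12.0% overlap 1700020L24Rik on the opposite strand, which was listed at 0 to 0.299 RPKM. The summed level of 8 epithelial markers was 456 to 504 RPKM in controls and 582 to 633 RPKM in iPCKO, with Hopx and Sftpb called higher, and the part of this in the Mmp28 result was not tested.

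Mmp23 (chromosome 4, 155650655 to 155653384), an atypical MMP without a hemopexin domain, read 10.9, 11.4 and 9.60 RPKM in controls and 7.004, 6.74 and 7.31 RPKM in iPCKO. The groups were separate, but the difference of -0.59 ± 0.10 (adjusted p = 0.0044, limma) was close to the threshold of 0.5, and it held in 2 of the 6 fits with 1 sample removed. Mmp19 ranged from 1.14 to 1.41 RPKM in controls and from 1.88 to 2.72 RPKM in iPCKO, with an adjusted p of 0.014 from limma. Of its exonic bases, 22.3% overlap Tmem198b on the opposite strand. Tmem198b was itself higher in every iPCKO sample, at 2.67 to 3.62 RPKM in controls and 4.34 to 5.09 RPKM in iPCKO. The part of this overlap in the Mmp19 values was not tested. Mmp11 (stromelysin-3) lay at 14.7 to 17.0 RPKM in controls and 12.9 to 14.7 RPKM in iPCKO, with an adjusted p of 0.24 from limma.

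**Figure D3:**
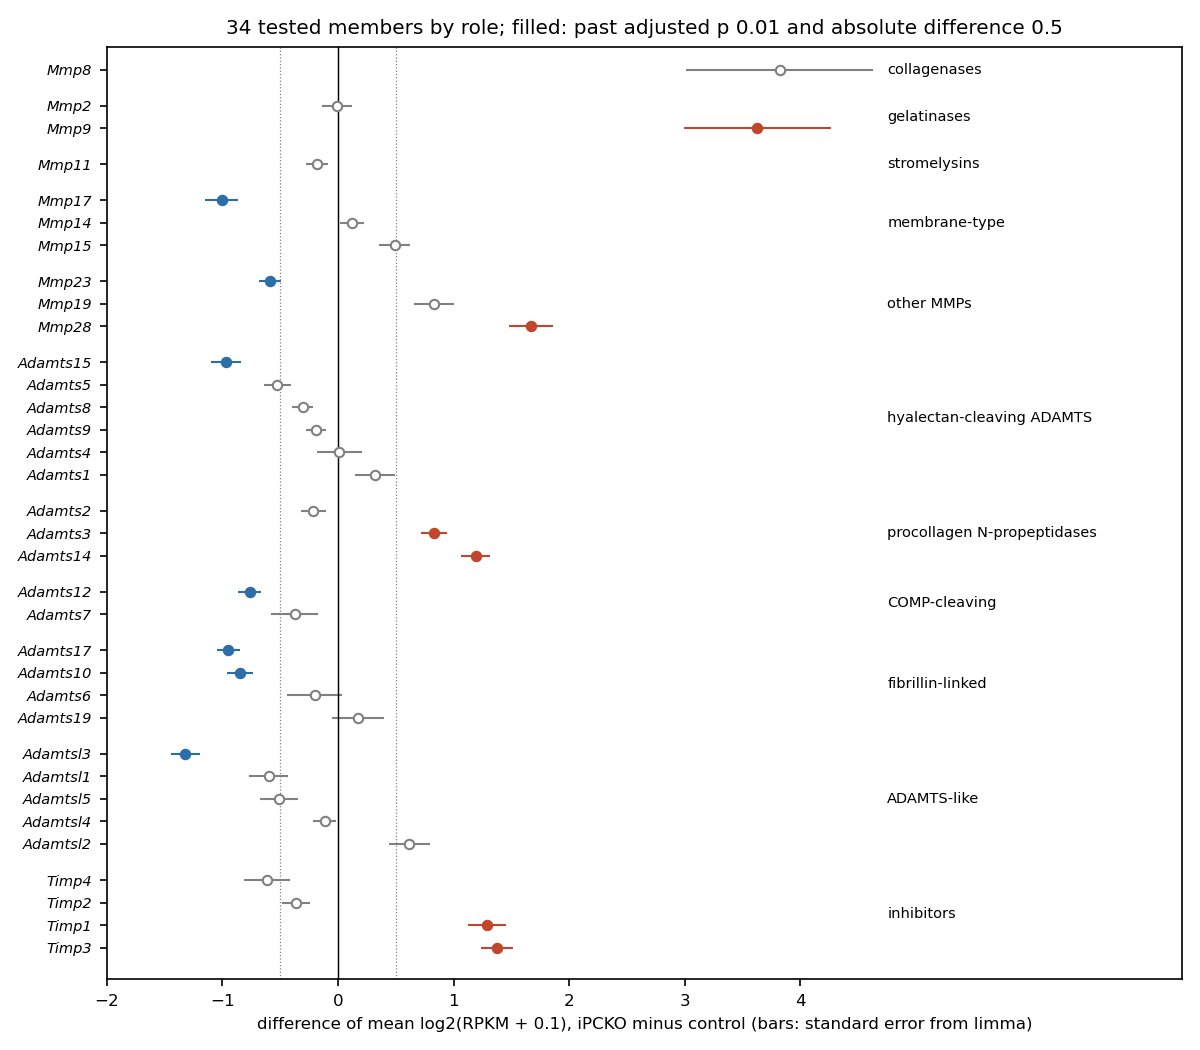
Difference of mean log2(RPKM + 0.1), iPCKO minus control, for the 34 tested members grouped by role, with bars for the standard error from limma and 3 samples per group. Filled points passed both thresholds (red higher, blue lower), dotted lines mark a difference of 0.5 in either direction, and the widest bars belong to Mmp8 (0.81) and Mmp9 (0.64).

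Mmp8 and Mmp9, stored in neutrophil granules, were set apart from the other members by design, as likely leukocyte proteases. Mmp9 (gelatinase B; chromosome 2, 164940780 to 164955850) read 0.645, 0.924 and 0.749 RPKM in controls and 3.19, 12.9 and 28.4 RPKM in iPCKO. The iPCKO samples were all higher but differed from each other by more than the lowest of them differed from the controls, and the difference was 3.62 ± 0.64 with an adjusted p of 0.0064 from limma. Mmp9 met the minimum for testing through the iPCKO samples alone, so this call depends on the group where it was high. Mmp8 (neutrophil collagenase; chromosome 9, 7558456 to 7568485) read 0.517, 1.01 and 0.646 RPKM in controls and 2.48, 13.9 and 39.3 RPKM in iPCKO, a difference of 3.82 ± 0.81 that did not pass (adjusted p = 0.015, limma). Mmp8 too met the minimum for testing only with the iPCKO samples.

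The neutrophil calcium-binding protein gene S100a9 read 40.6, 52.7 and 39.9 RPKM in controls and 221, 981 and 2346 RPKM in iPCKO, the same order of samples within iPCKO. Per 1000 RPKM of S100a9, Mmp8 stayed between 11.3 and 19.1 RPKM in all 6 samples, a range of 1.69 times, while its own level spanned 76.0 times. For Mmp9 this ratio stayed between 12.1 and 18.8 RPKM, a range of 1.55 times against 44.0 times for its level. The ratios of the groups overlapped for Mmp8, and for Mmp9 they were 15.9 to 18.8 in controls and 12.1 to 14.4 in iPCKO. S100a9 was among the markers with the steadiest ratio. Over the 9 neutrophil markers above 0 in every sample, the ratio of Mmp8 to a marker ranged 1.61 to 12.4 times across the samples (median 2.55) and that of Mmp9 1.55 to 7.71 times (median 2.83), widest for both against Cxcr2. Mmp25 (leukolysin), a further MMP of neutrophils, was not tested, at 0.105 to 0.325 RPKM in controls and 0.238, 0.883 and 2.00 RPKM in iPCKO, and its ratio to S100a9 was not constant, at 0.851 to 8.13 RPKM per 1000. Of the 10 neutrophil markers 9 were tested and 5 were called higher. The other tested ones, Camp, Ltf, Ly6g and Ngp, were also higher in every iPCKO sample, by 2.65 to 3.05, without passing (adjusted p 0.031 to 0.049, limma). The serine proteases of neutrophil granules were too low to be tested. Elane was listed at 0 in the 3 controls and at most at 0.229 RPKM in iPCKO, Prtn3 was higher in every iPCKO sample, at 0.0331 to 0.117 and 0.273 to 0.567 RPKM, and Ctsg overlapped. The other 5 of 8 leukocyte granule proteases, the mast cell and basophil genes Cma1, Cpa3, Mcpt4, Mcpt8 and Tpsb2, were tested and none passed. Of these, only Mcpt8 was higher in every iPCKO sample, at 0.876 to 1.36 RPKM in controls and 2.15 to 5.58 RPKM in iPCKO (adjusted p = 0.025, limma).

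**Figure D4:**
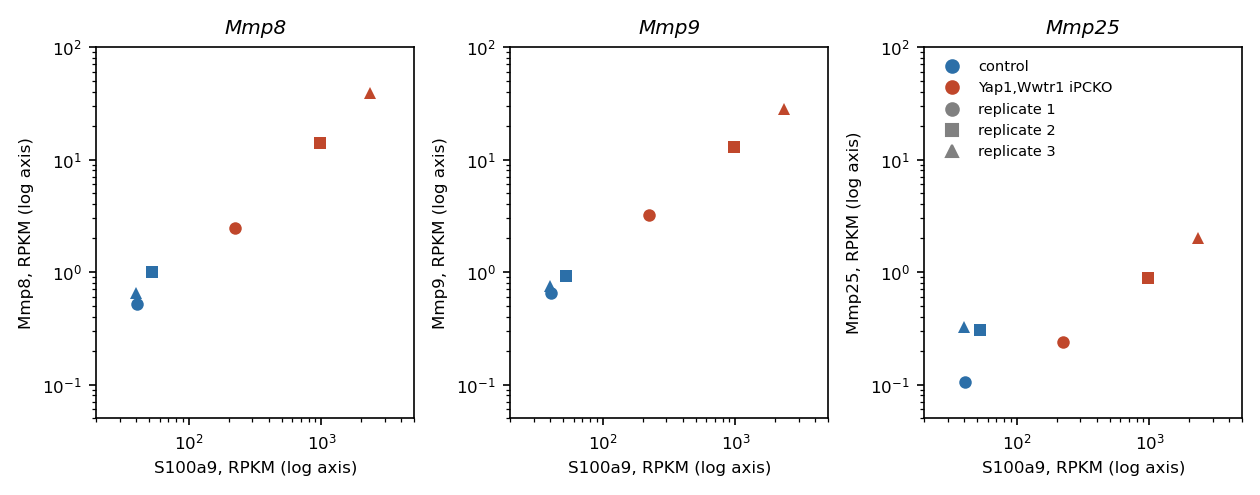
Level of Mmp8, Mmp9 and Mmp25 against that of S100a9, all in RPKM on log axes, with 1 point for each of the 3 control (blue) and 3 iPCKO (red) samples. Mmp8 and Mmp9 rose with S100a9, which ran from 39.9 to 2346 RPKM across the samples, and iPCKO 3 was highest in each panel.

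Outside Mmp8, the genes of the chromosome 9 block were low in every sample. The highest value of any of them was 0.893 RPKM, for Mmp3 in control 2, and the highest control value in the block was 1.01 RPKM for Mmp8. Mmp7 (matrilysin) and Mmp20 (enamelysin of tooth enamel) were listed at 0 in all 6 samples. Mmp10 (stromelysin-2) was listed at 0 in the 3 controls and at 0.302, 0.601 and 0.163 RPKM in iPCKO, which corresponded to 11, 41 and 4 reads. Mmp3 (stromelysin-1) went the other way, at 0.593, 0.893 and 0.449 RPKM in controls and 0.0525, 0.281 and 0.195 RPKM in iPCKO, or 21, 28 and 28 reads against 2, 20 and 5 reads. Both pairs of groups were separate, but neither gene reached the minimum for testing. Without that minimum Mmp10 was called higher (adjusted p = 0.0071, limma) and Mmp3 was not (adjusted p = 0.042). Mmp10 entered that fit through the iPCKO samples alone, so its call depends on the group where it was high. The reads were recovered from the RPKM, the implied depth and the exon length of their single transcript. Mmp13 gave 1 to 6 reads a sample, Mmp1b a single read in 1 control, and Mmp12 lay between 0.245 and 0.410 RPKM in both groups.

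**Figure D5:**
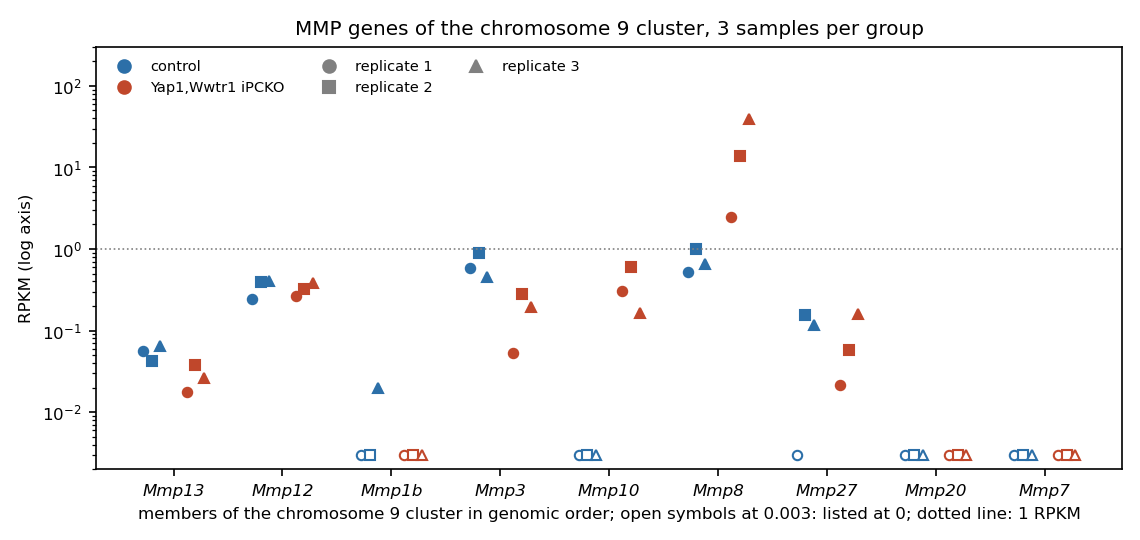
RPKM on a log axis of the 9 MMP genes of the chromosome 9 block in genomic order, in 3 control (blue) and 3 iPCKO (red) samples, with open symbols for values listed at 0 and a dotted line at 1 RPKM. Mmp8 alone lay above the line in iPCKO, and Mmp10 and Mmp3 moved in opposite directions below it.

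The ADAMTS enzymes that cleave hyalectans, the large proteoglycans such as versican, were 7 genes, of which 6 were tested and 1 fell. Adamts15 (chromosome 9, 30899155 to 30922452), a versican-cleaving enzyme, read 14.4, 19.5 and 15.2 RPKM in controls and 7.68, 9.21 and 7.94 RPKM in iPCKO. The groups were far apart relative to their spread, with a difference of -0.97 ± 0.13 and an adjusted p of 0.0018 from limma. Its neighbour Adamts8, 20.1 kb away, differed by -0.31 with an adjusted p of 0.059 from limma, and Adamts5 by -0.53 with an adjusted p of 0.019; both were lower in every iPCKO sample without passing. Adamts1, which lies 53.1 kb from Adamts5 on chromosome 16, overlapped between groups, with a difference of 0.32. Adamts9 and Adamts4 differed by -0.19 and 0.01, and Adamts20 was below 0.3 RPKM in every sample. Versican itself (Vcan) was 19.1 ± 3.41 RPKM in controls and 35.8 ± 5.29 RPKM in iPCKO (SD, n = 3 each), a difference of 0.91 with an adjusted p of 0.0057 from limma.

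The procollagen N-propeptidases, which remove the amino-terminal propeptide of fibrillar procollagens, split. Adamts14 (chromosome 10, 61197112 to 61273438) rose from 2.80, 3.06 and 2.42 RPKM in controls to 5.71, 6.46 and 7.13 RPKM in iPCKO. The difference was 1.19 ± 0.13 with an adjusted p of 0.00057 from limma. Adamts3 (chromosome 5, 89677087 to 89883334), which also processes the lymphatic growth factor VEGF-C, rose from 4.33, 3.87 and 4.66 RPKM to 8.41, 7.03 and 7.61 RPKM, by 0.83 ± 0.11 with an adjusted p of 0.0017 from limma. Adamts2, the most abundant of the 3 enzymes, overlapped between groups, at 54.7, 46.8 and 43.4 RPKM and 39.2, 44.9 and 40.3 RPKM, with a difference of -0.21 ± 0.11 and an adjusted p of 0.23 from limma. Their summed level was 55.3 ± 5.85 RPKM in controls and 55.6 ± 2.56 RPKM in iPCKO (SD, n = 3 each), while the share of Adamts2 in it was 87.2% ± 1.25 and 74.5% ± 2.04.

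Adamts12 and Adamts7 cleave cartilage oligomeric matrix protein, whose own gene Comp was at most 0.116 RPKM in any sample. Adamts12 (chromosome 15, 11064790 to 11349231) fell from 37.2, 35.1 and 38.2 RPKM in controls to 20.7, 24.6 and 19.97 RPKM in iPCKO. The lowest control was clearly above the highest iPCKO sample, and the difference was -0.76 ± 0.10 with an adjusted p of 0.0015 from limma. Adamts7 overlapped, at 12.2 to 16.1 and 8.21 to 14.6 RPKM, with a difference of -0.38 and an adjusted p of 0.25.

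Of the 4 enzymes tied to fibrillin microfibrils, Adamts10 and Adamts17, genes mutated in Weill-Marchesani-type syndromes of short stature and lens dislocation, both fell. Adamts10 (chromosome 17, 33524204 to 33553782) read 64.9, 57.5 and 55.8 RPKM in controls and 37.9, 32.1 and 29.3 RPKM in iPCKO. It was the most abundant ADAMTS gene in controls, and its iPCKO values lay below all controls, with a difference of -0.85 ± 0.12 and an adjusted p of 0.0019 from limma. Adamts17 (chromosome 7, 66839735 to 67153171) fell from 21.3, 23.7 and 24.8 RPKM to 11.1, 12.98 and 11.96 RPKM, by 0.95 ± 0.10 on the log2 scale with an adjusted p of 0.00048 from limma. Adamts6 (3.69 to 3.81 RPKM in controls, 2.14 to 4.71 RPKM in iPCKO) and Adamts19 (1.44 to 1.79 and 1.25 to 2.26 RPKM) overlapped between groups. The fibrillin genes did not pass either, Fbn1 averaging 215 and 194 RPKM and Fbn2 110.2 and 89.2 RPKM in controls and iPCKO. Ribosome-bound RNA of elastin (Eln), whose protein is laid down on these microfibrils, fell from 1702 ± 263 to 725 ± 147 RPKM (SD, n = 3 each). It fell by 1.24 on the log2 scale with an adjusted p of 0.0042 from limma. At protein level, the study saw no significant change in tropoelastin by staining or immunoblot in whole lungs of slightly younger iPCKO mice.

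Adamts13, which cleaves von Willebrand factor, was below 0.2 RPKM in every sample, and so were Adamts16 and Adamts18.

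Among the 5 ADAMTS-like genes, Adamtsl3 fell and the others did not pass. Adamtsl3 (chromosome 7, 82335694 to 82614450), a matrix glycoprotein of the ADAMTS superfamily without a protease domain, read 82.7, 70.3 and 77.6 RPKM in controls and 36.1, 26.9 and 29.5 RPKM in iPCKO. The groups were far apart, and the mean fell from 76.9 ± 6.24 to 30.9 ± 4.76 RPKM (SD, n = 3 each), a difference of -1.32 ± 0.12 with an adjusted p of 0.00032 from limma. It was the largest decrease among the 34 tested members. Adamtsl1 and Adamtsl5 lay lower in every iPCKO sample, by -0.60 and -0.51 with adjusted p of 0.043 and 0.075 from limma. Adamtsl2, a fibrillin- and LTBP1-binding protein, lay higher in every iPCKO sample, by 0.62 with an adjusted p of 0.048, and Adamtsl4 overlapped with a difference of -0.12.

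The summed levels of each family are given as a description, with no test. The 19 ADAMTS genes totalled 295, 303 and 298 RPKM in controls and 229.9, 242 and 232 RPKM in iPCKO, 78.6% of the control mean. The 5 ADAMTSL genes totalled 104, 94.3 and 101 RPKM and 57.8, 50.6 and 51.2 RPKM, 53.2% of the control mean, and Adamtsl3 made up 76.8% of the sum in controls and 57.8% in iPCKO. Both sums lay apart between the groups. The 4 TIMP genes totalled 183, 156 and 156 RPKM and 190.0, 217 and 200.2 RPKM, also without overlap. The 22 MMP genes totalled 251, 267 and 243 RPKM and 257, 317 and 329 RPKM, which overlapped, and their mean in iPCKO was 119% of control with Mmp8 and Mmp9 and 106% without them.

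Genes that act with the members were taken from lists made by function. Of 10 other inhibitors and regulators 7 were tested, with 1 higher and 1 lower. Thsd4, an ADAMTS-like protein that promotes microfibril assembly, rose from 6.28 to 9.58 RPKM (0.59, adjusted p = 0.0078), and Tfpi2, a Kunitz-type serine protease inhibitor of the matrix, fell from 5.80 to 2.08 RPKM (-1.44, adjusted p = 0.00013). Reck, the membrane-anchored inhibitor of Mmp2, Mmp9 and Mmp14, was lower in every iPCKO sample, at 66.2 ± 2.70 and 48.1 ± 5.16 RPKM (SD, n = 3 each), without passing (-0.47, adjusted p = 0.016, limma).

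Of the 4 proprotein convertases, which cut the propeptide from many MMP and ADAMTS precursors, Pcsk6 fell from 5.51 to 1.51 RPKM (-1.80, adjusted p = 0.00019). Furin averaged 17.4 and 24.7 RPKM (0.53, adjusted p = 0.058), and Pcsk5 and Pcsk7 did not pass. Among 15 other metalloproteases 10 were tested and only Adam33 was called, lower, at 1.57 and 0.590 RPKM (-1.28, adjusted p = 0.0028). Of 10 other matrix proteases 9 were tested and 2 rose, Ctss (cathepsin S, a lysosomal protease of macrophages and other antigen-presenting cells), from 9.69 to 30.2 RPKM, and Pappa2, which cleaves IGF-binding proteins, from 7.98 to 16.4 RPKM. The 9 macrophage markers summed to 17.6 to 28.8 RPKM in controls and 35.1 to 68.3 RPKM in iPCKO, and their part in the Ctss result was not tested. Of 11 substrates 8 were tested, and Vcan and Eln, given above, were the ones called.

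The levels of the other cell markers are given first, and then the 13 changed members with the sex signal as a covariate. Pan-leukocyte markers summed to 58.9 to 82.5 RPKM in controls and 151 to 270 RPKM in iPCKO (8 of 10 higher), platelet markers to 7.91 to 9.68 and 21.7 to 61.6 RPKM, and mesothelial markers to 3.94 to 5.58 and 7.35 to 9.76 RPKM. Endothelial markers summed to 137 to 147 and 142 to 156 RPKM, fibroblast and myofibroblast markers to 215 to 237 and 179 to 215 RPKM, smooth muscle markers to 909 to 1109 and 1076 to 1261 RPKM, and mast cell markers to 11.1 to 14.8 and 14.0 to 16.9 RPKM. Within these lists Actg2 and Cnn1 of smooth muscle were called higher, by 1.59 and 1.11, as were Kdr of endothelium (0.77) and Msln of mesothelium (0.98), and Npnt of the fibroblast list was called lower (-1.16). Their part in the members' differences was not tested. With the Y-linked level as a covariate in limma, all 13 kept their direction, at 0.837 to 1.27 times their difference, and 9 had an adjusted p below 0.05, but only Adamts15 still passed both thresholds (-1.23, adjusted p = 0.0067). Only control 2 shares the Y-linked level of the iPCKO samples, so the 2 terms are poorly separated, and 119 genes in all were called in that fit.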

How the data were processed

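Ribosome-bound lung RNA of 3 control and 3 Yap1,Wwtr1 iPCKO samples was analysed, grouped by genotype label. Stranded total RNA libraries were sequenced as 75-bp pairs, mapped by the authors to mm10 (GRCm38) with TopHat, counted with HTSeq 0.6.1 and tested with DESeq2. The authors deposited RPKM per Ensembl gene, 1 table a sample. The exon length used and the strand setting are not given in the sources used here. An RPKM value no longer shows its reads, so the error of low genes depends on a depth the tables do not state. Depth was read from the spacing of low values, of which 74.8% to 77.0% lay within 0.02 of a whole read.

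Symbols and coordinates (1-based) came from GENCODE M21. RPKM were not scaled further. limma 3.58.1 (R 4.3.3; lmFit, eBayes with intensity trend, no replicate block) was fitted to log2(RPKM + 0.1) of the 12034 genes that reached 1 RPKM in 3 or more samples, with Benjamini-Hochberg adjustment over all of them and the study's thresholds. The pseudocount makes differences of low genes too small. Nothing in the labels says that samples came from separate animals, so p-values measure the spread between these samples. With 3 against 3, an exact permutation test cannot go below 0.1, so none is given. On simulated data for this comparison (12034 genes, 200 changed), 60.5% of genes changed by 1 and 97% of those changed by 2 were called, with 1 and 2 false calls. The simulated noise was normal and independent between genes. It held no differences shared by many genes, such as those of sex or leukocyte content, so these false calls need not apply to the real samples.

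The members and gene lists were chosen with earlier results of these data known. Values in every sample are given for called members, all TIMPs, Mmp2, Mmp14, Mmp8, Mmp9 and the 5 most abundant members in controls; other members are given by range and counts, and singly in small groups. Alternatives were other pseudocounts, filters, scalings, thresholds and sample weights, no trend, a replicate block, each sample left out, and, added after seeing the data, a Y-linked covariate. Promoter windows were RefSeq GRCm38.p6.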

Additional observations from a re-analysis of the deposited data

How the results depend on the processing

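The counts of changed members moved most with the Y-linked covariate and with the thresholds, and whether sex itself played a part was not tested. With the Y-linked covariate, added after seeing the data, 0 members were called higher and 1 lower, and 61 genes of all were higher and 58 lower, where the covariate takes a degree of freedom and only control 2 shares the iPCKO level. At an absolute difference above 1, the lower members were 2 and all genes 276 higher and 135 lower. At an adjusted p below 0.05 there were 802 and 511 genes, and with sample weights 998 and 592. Leaving out 1 sample at a time gave 5 to 8 higher and 4 to 7 lower members (4 without iPCKO 2), and 222 to 558 higher and 160 to 341 lower genes. The lowest counts came without control 3, and counts moved by over 1.5 times also without control 2 (209 lower), iPCKO 2 (231 and 183) and iPCKO 3 (303 and 196); the cause was not tested.

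Of the 13 changed members, 8 passed in all 6 fits that left out a sample (Adamts14, Adamts15, Adamts17, Adamts3, Adamtsl3, Mmp28, Timp1 and Timp3), Adamts10 and Adamts12 in 5, Mmp17 in 4, Mmp23 in 2 and Mmp9 in 1. Mmp9 also missed the threshold with a pseudocount of 1 (2.76), without the filter and without the trend. Mmp8 passed with sample weights (4.002) and without iPCKO 1 (4.88), and Timp4 with sample weights (-0.72). Mmp2, near 0, ranged from -0.072 to 0.10 with a sample left out, above 0 without control 2 and without iPCKO 1, and was 0.074 with sample weights. Across the alternatives, 251 differences of named members kept their side of the threshold and direction, 28 no longer passed, 4 newly passed and 3 turned sign. Both scalings moved the median of all genes by less than 0.1.

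Replicate numbers were not shown to pair the samples, since deviations of same-numbered samples correlated at 0.022 to 0.238 (mean 0.117). With a replicate block, 8 members were higher (Mmp8, adjusted p = 0.0043, and Adamtsl2, adjusted p = 0.0070, were added) and 7 lower, and 579 and 343 genes of all were called.

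In the shallowest library a single read on a 1 kb transcript was worth 0.0702 RPKM. Without the filter on low values, Mmp10 was called higher (adjusted p = 0.0071, limma) and Mmp3 was not called (adjusted p = 0.042), and their fitted differences depend on the pseudocount. Mmp10, at 0 in every control, was in that fit only because of the iPCKO samples. Mmp7 and Mmp20 were listed at 0 throughout.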
